A study of Mus musculus with 2 samples.

Results

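The EGR, NR4A and IER immediate early genes were followed across lung endothelial cells (ECs) of mice that had received melanoma cells 6 h earlier and of control mice. The 8 genes were chosen by symbol among the 32285 genes of the matrices: Egr1, Egr2, Egr3, Nr4a1, Nr4a2, Nr4a3, Ier2 and Ier3. Wild-type C57BL/6 mice, young adult males per the study's methods, were injected into a tail vein with phosphate-buffered saline alone, as the control, or with 100 microlitres that carried 400000 cells of B16-F10, a melanoma line of mouse skin, labelled with a green tracker dye. In both groups lungs were taken 6 h after injection and digested for an hour with warm collagenase, and cells with surface Pecam1, an EC protein, and without Ptprc, a leukocyte protein, were sorted. From injected lungs, melanoma cells with the dye were collected too. All mice of a group went into 1 library (2 mice per group per the labels, 3 per the paper), so there was no replicate, no test and no p-value. Every difference below is one between 2 libraries, and intervals cover counting error only.

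Immediate early genes are transcribed within minutes of a signal from existing transcription factors, with no new protein needed, and their short-lived mRNAs usually decline soon after. EGR proteins are zinc finger transcription factors that ECs induce on shear stress, injury and growth factors. NR4A proteins are orphan nuclear receptors that act without a known natural ligand and are induced by cAMP, calcium and inflammatory signals. Ier2 encodes a small nuclear regulator of transcription, and Ier3 a short stress-induced protein that bears on cell survival and on ERK signalling.

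All 8 genes are protein coding, and none overlaps another gene of the GENCODE M21 annotation (GRCm38). Egr1 (ENSMUSG00000038418) lies on chr18:34859823-34864984, Egr2 (ENSMUSG00000037868) on chr10:67535475-67542188 and Egr3 (ENSMUSG00000033730) on chr14:70077203-70082614. Nr4a1 (ENSMUSG00000023034) lies on chr15:101254269-101274795, Nr4a2 (ENSMUSG00000026826) on chr2:57106830-57124003 and Nr4a3 (ENSMUSG00000028341) on chr4:48045153-48086447. Ier2 (ENSMUSG00000053560) lies on chr8:84661331-84662852 and Ier3 (ENSMUSG00000003541) on chr17:35821684-35822923. Nr4a2 and Ier2 are on the minus strand and the other 6 on the plus strand.

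The control library held 85794655 unique molecular identifiers (UMIs, each marking 1 captured RNA molecule) and the B16-F10 library 104978816. After filtering, 7830 and 7767 cells remained, with a median of 7373 and 8445 UMIs, and 36 barcodes with at least 300 genes were shared by the libraries. Clusters were named from markers as general capillary (gCap-like, 4861 control and 4542 B16-F10 cells), aerocyte capillary (aCap-like, 1460 and 985), vein-like (278 and 256), artery-like (207 and 139) and lymphatic (LEC-like, 50 and 48) ECs. In each of these classes at least 7 of the 8 markers of the class and 7 of 8 EC markers were found in no fewer than 50% of the cells of either library. Of the 8 gCap markers, 6 reached this share in artery-like ECs and 4 in vein-like ECs, in both libraries. Further ECs without a vessel class numbered 66 and 352. Sums of UMIs are given as counts per 1000000 UMIs of the class (CPM). A gene counted as measured with at least 50 UMIs over both libraries, and as higher or lower when it differed by at least 1.5-fold with a 95% interval of the ratio that left out no change.

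RefSeq promoter windows of GRCm38.p6, which run from 250 bases before a transcription start, were found for 5 of the 8 genes (Nr4a1, Nr4a2, Nr4a3, Egr2 and Ier3). The bases before the start that lie in no annotated exon are shown for these genes. The members of the NR4A family carried like sequence elements, and their log2 ratios in gCap-like ECs ran from 0.00 to 2.08. The upper end is that of Nr4a3, on 3 and 14 UMIs, under the minimum for a call. A link between elements and ratios was not tested. Capitals mark TGACG or its reverse CGTCA, the short form of the cAMP response element, in the NR4A genes, the serum response element core (CArG) in Egr2 and a kappaB site in Ier3. All stretches read 5′ to 3′ on the strand of the gene.
Nr4a1, chr15:101266596-101266845, plus strand: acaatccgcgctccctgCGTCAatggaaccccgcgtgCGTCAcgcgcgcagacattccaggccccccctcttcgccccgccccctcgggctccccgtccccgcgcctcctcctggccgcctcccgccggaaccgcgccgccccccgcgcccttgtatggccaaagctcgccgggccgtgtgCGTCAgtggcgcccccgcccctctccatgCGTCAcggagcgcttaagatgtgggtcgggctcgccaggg
Nr4a2, chr2:57124004-57124253, minus strand: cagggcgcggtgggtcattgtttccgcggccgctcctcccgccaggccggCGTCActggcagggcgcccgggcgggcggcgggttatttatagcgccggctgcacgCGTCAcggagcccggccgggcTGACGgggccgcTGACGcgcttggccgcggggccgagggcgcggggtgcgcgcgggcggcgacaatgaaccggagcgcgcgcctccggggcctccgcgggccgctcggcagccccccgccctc
Nr4a3, chr4:48045055-48045152, plus strand: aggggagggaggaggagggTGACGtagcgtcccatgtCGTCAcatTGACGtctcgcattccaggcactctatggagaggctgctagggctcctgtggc
Egr2, chr10:67537619-67537868, plus strand: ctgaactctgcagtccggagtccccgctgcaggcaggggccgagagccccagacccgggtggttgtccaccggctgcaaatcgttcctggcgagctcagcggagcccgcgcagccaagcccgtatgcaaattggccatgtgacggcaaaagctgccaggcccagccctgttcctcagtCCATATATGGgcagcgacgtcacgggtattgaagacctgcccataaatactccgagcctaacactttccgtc
Ier3, chr17:35821463-35821683, plus strand: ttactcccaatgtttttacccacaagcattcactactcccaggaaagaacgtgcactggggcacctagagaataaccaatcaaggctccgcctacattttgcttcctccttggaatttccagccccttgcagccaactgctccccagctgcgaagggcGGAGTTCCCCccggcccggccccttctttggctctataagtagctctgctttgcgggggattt
The windows of Nr4a1, Nr4a2 and Nr4a3 each held 4 such cAMP motifs, counted on both strands. For Nr4a3, 3 of these lie in the stretch shown. The Nr4a1 window shown is that of a start within the gene, whose annotated start is at chr15:101254269. The Nr4a3 window, chr4:48045055-48045354, is also that of a start past the annotated one, at chr4:48045153. The same holds, by fewer bases, for the Ier3 window and the Egr2 window from chr10:67535249. Of all 32851 windows, 20.8% held at least 1 cAMP motif and 0.231% held at least 4. A CArG core stood in 1.63% of windows and a kappaB site in 8.46%. The kappaB site was not particular to Ier3. Matches also stood in the Nr4a1 window, across its start, and in the Egr2 window from chr10:67535249. Egr2 had 5 windows. The one nearest the annotated start of the gene, with the stretch chr10:67535249-67535474, held 0 CArG cores. The other 4, of starts further within the gene, each held one, and 1 of these windows is shown. The windows from chr10:67537619, chr10:67537620 and chr10:67537680 overlap and hold the same core, the one shown. The Egr2 stretch also holds both forms of the cAMP motif, left in lower case. These matches describe letters in the windows and not binding.

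The first comparison asked how the 8 genes differed between the libraries in gCap-like ECs, the largest class. Egr1 (log2 ratio 3.74), Egr3 (2.58), Ier3 (2.07), Nr4a1 (1.41) and Ier2 (1.36) were higher in the B16-F10 library, and Nr4a2 (0.00) was neither higher nor lower. The value of Egr3 turned to -0.02 when each gCap-like cluster had the same weight, and Egr3 fell below the minimum for a call when cells were thinned to 2000 UMIs or when the cluster mostly of B16-F10 cells was left out. Of the 8 genes, 6 were measured, and of these 5 were higher, none was lower and 1 was neither. Among all 13189 measured genes 7.64% were higher and 8.88% lower, and their median log2 ratio was -0.04, against 1.74 for the 6 genes.

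Among the EGR genes, Egr1 stood at 10.8 CPM (382 UMIs, 95% interval 9.71 to 11.9) in control gCap-like ECs and at 144 CPM (5623 UMIs, 140.2 to 147.7) in those of the B16-F10 library. This is a 13.4-fold difference, with a log2 ratio of 3.74 (3.59 to 3.89), and 0.152% of measured genes had a higher ratio. Egr3 was found at far fewer UMIs, 15 in the control and 99 in the B16-F10 library, or 0.423 and 2.53 CPM. Its log2 ratio was 2.58 (1.79 to 3.47). Egr2 gave 4 and 24 UMIs (0.113 and 0.614 CPM), under the minimum for a call, with a log2 ratio of 2.45 (0.91 to 4.43). Summed over the family, the EGR genes gave 401 and 5746 UMIs, nearly all of them from Egr1.

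The NR4A genes had log2 ratios from 0.00 to 2.08. Nr4a1 gave 60 UMIs (1.69 CPM, 1.29 to 2.18) in the control and 176 (4.50 CPM, 3.86 to 5.22) in the B16-F10 library, a log2 ratio of 1.41 (0.98 to 1.86). Nr4a2 gave 233 and 257 UMIs, which is 6.56 CPM (5.75 to 7.46) and 6.58 CPM (5.80 to 7.43). Its log2 ratio was 0.00 (-0.26 to 0.27), within counting error of no difference, and 45.1% of measured genes had a higher ratio. Nr4a3 was close to the limit of detection with 3 and 14 UMIs (0.0845 and 0.358 CPM) and a log2 ratio of 2.08 (0.24 to 4.52). Summed over the family, the NR4A genes stood at 8.34 and 11.4 CPM, a log2 ratio of 0.46 (0.24 to 0.67). A difference between the families was not tested.

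The IER genes held most of the UMIs of the 8 genes. Ier3 stood at 209 CPM (7419 UMIs, 204.2 to 213.8) in the control and at 876 CPM (34230 UMIs, 867 to 885) in the B16-F10 library, a log2 ratio of 2.07 (2.03 to 2.1). Ier2 stood at 134 CPM (4755 UMIs) and 345 CPM (13478 UMIs), a log2 ratio of 1.36 (1.32 to 1.41). Both were found in cells of every vessel class in both libraries. Of all measured genes, 0.728% had a higher ratio than Ier3 and 1.76% a higher ratio than Ier2.

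**Figure D1:**
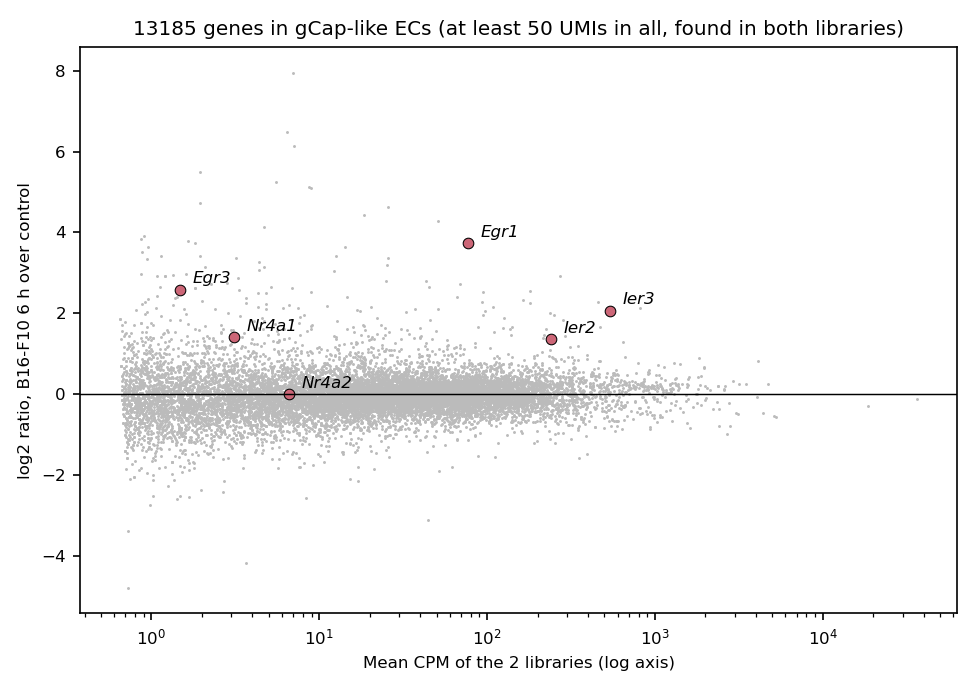
Each point is a gene in gCap-like ECs, with the mean CPM of the 2 libraries on the x axis (log axis) and the log2 ratio of B16-F10 6 h over control on the y axis; the measured immediate early genes are named. Egr1 (3.74), Egr3 (2.58), Ier3 (2.07), Nr4a1 (1.41) and Ier2 (1.36) lie above most genes, and Nr4a2 (0.00) lies among them.

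RNA from broken cells can enter droplets, and its level was estimated from barcodes with 1 to 100 UMIs. In gCap-like ECs it made up an estimated 1.41% of UMIs in the control and 1.61% in the B16-F10 library. For Egr1 this would account for 0.383 and 1.56 CPM, and for Ier3 for 2.78 and 12.1 CPM. The melanoma markers summed to 25.9 CPM in control and 50.7 CPM in B16-F10 gCap-like ECs, with 2 and 0 of the 8 markers at 0, and the monocyte and macrophage markers to 16.6 and 31.0 CPM, with 2 and 0 of 8 at 0. The 8 epithelial markers summed to 47.6 and 90.2 CPM and the 5 erythroid markers to 1231 and 1494 CPM, with none at 0. Their part in the result was not tested.

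Warm enzymatic digestion is known to induce immediate early genes and heat shock genes in dissociated cells, and both libraries went through it. Of 13 heat shock genes measured in gCap-like ECs, 2 were higher, 2 lower and 9 neither, against 7.64% higher and 8.88% lower among all measured genes, with a median log2 ratio of 0.15. Hspe1 (log2 ratio 0.70) and Hsp90aa1 (0.59) were higher, while Hspa1b (-1.45) and Hspa1a (-0.94), the inducible heat shock proteins, were lower; Bag3 (0.44) and Dnajb4 (-0.41) were neither. The list summed to 2719 CPM in the control and 3094 CPM in the B16-F10 library. A difference in handling between the 2 libraries and the injection cannot be told apart here.

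The classes of cells were next compared. Among the classes named from clusters, the log2 ratio of Egr1 ran from 0.42 in artery-like to 3.74 in gCap-like ECs. With classes from marker scores of single cells it was 2.37 in aCap-like ECs, 2.27 in artery-like ECs and 2.03 in vein-like ECs, so that artery-like ECs no longer had the lowest value. Ier3 was higher in the 4 blood vessel classes, and Nr4a2 was neither higher nor lower in the 3 classes where it was measured. Nr4a1 passed in gCap-like and not in aCap-like ECs. Differences between classes were not tested. The summed melanoma, macrophage or monocyte, and epithelial markers were each higher in the B16-F10 library in every vessel class, from 39.3 to 72.0 CPM for the epithelial markers in aCap-like ECs and from 21.2 to 75.3 CPM for the melanoma markers in LEC-like ECs, for example. Their part in the ratios was not tested. The number of the 8 genes that were measured fell with the size of the class, from 6 in gCap-like to 2 in LEC-like ECs.

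**Figure D2:**
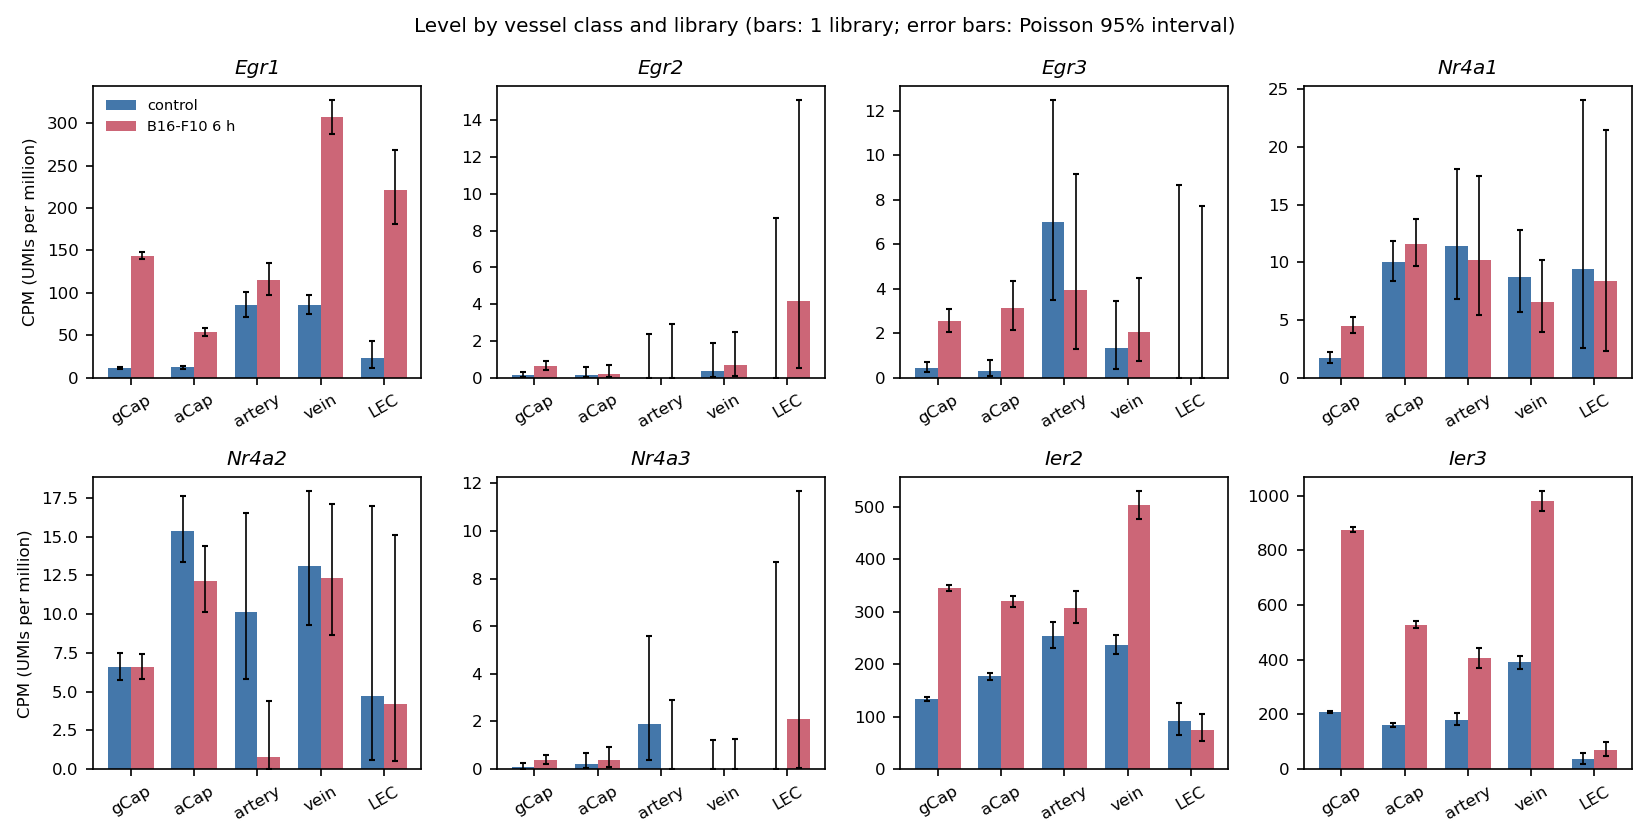
CPM of each of the 8 genes (y axis, a scale of its own per gene) by vessel class (x axis) in the control and the B16-F10 6 h library; bars are 1 library and error bars are Poisson 95% intervals. Egr1 was low in control capillaries (10.8 CPM in gCap-like, 12.0 in aCap-like ECs) and higher in control artery-like (85.7) and vein-like (85.7) ECs.

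In aCap-like ECs, the cells thought to lie against alveolar epithelium for gas exchange, 3 of 5 measured genes were higher and none lower, against 6.07% higher and 7.4% lower among all measured genes. Egr1 stood at 12.0 CPM (159 UMIs) and 53.6 CPM (584 UMIs), a log2 ratio of 2.15 (1.90 to 2.42). Ier3 stood at 161 and 529 CPM, a log2 ratio of 1.71 (1.64 to 1.79), and Ier2 at 177 and 320 CPM (0.86, 0.78 to 0.93). Nr4a1 (10.0 and 11.6 CPM, log2 ratio 0.21, -0.15 to 0.57) and Nr4a2 (15.4 and 12.1 CPM, -0.34, -0.67 to -0.02) were neither. When every cell was thinned to 2000 UMIs, the log2 ratio of Nr4a1 was 0.85. Egr3 gave 4 and 34 UMIs, Egr2 2 in each and Nr4a3 3 and 4, all under the minimum. Most aCap-like cells of the libraries lay in different clusters (177 control and 714 B16-F10 cells in cluster 7, 688 and 89 in cluster 8, 595 and 182 in cluster 9). Within these the log2 ratio of Egr1 was 1.37, 3.31 and 3.98, and that of Ier3 1.65, 2.35 and 2.13.

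In vein-like ECs 3 of 4 measured genes were higher and none lower, against 4.43% higher and 5% lower among all. Markers of other cells differed here too: the 5 erythroid markers summed to 510 CPM in the control and 3770 CPM in the B16-F10 library, with none at 0, and the 8 epithelial markers to 27.6 and 75.1 CPM, with 1 at 0 in each. Their part in the result was not tested. Egr1 stood at 85.7 CPM (255 UMIs) and 307 CPM (895 UMIs), its highest level in any vessel class of the B16-F10 library, with a log2 ratio of 1.84 (1.64 to 2.05). Ier3 stood at 390 and 979 CPM (log2 ratio 1.33, 1.23 to 1.43) and Ier2 at 237 and 503 CPM (1.09, 0.96 to 1.22). Nr4a2 gave 39 and 36 UMIs (log2 ratio -0.09, -0.78 to 0.61). Nr4a1 gave 26 and 19 UMIs, Egr3 4 and 6, Egr2 1 and 2, and Nr4a3 none in either library, which at the 3 counts that a count of 0 allows is a level of up to 1.01 CPM in the control and 1.03 CPM in the B16-F10 library.

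In artery-like ECs 1 of 3 measured genes was higher and none lower, against 6.9% higher and 6.1% lower among all. Ier3 stood at 181 and 405 CPM, a log2 ratio of 1.16 (0.95 to 1.38). Egr1 stood at 85.7 CPM (135 UMIs) and 115 CPM (146 UMIs), with a log2 ratio of 0.42 (0.07 to 0.77), and Ier2 at 255 and 308 CPM (0.27, 0.07 to 0.48). These values depended on which cells were called arterial. Egr1 was at 0.98 with at least 1500 genes per cell. With at least 500 genes, Egr1, Ier2 and Ier3 were at 1.03, 0.60 and 1.67. When each cell was assigned by its marker score, which made a class of 867 control and 824 B16-F10 cells, they were at 2.27, 1.04 and 1.87, all beyond 1.5-fold. Nr4a2 gave 16 and 1 UMIs, Nr4a1 18 and 13, Egr3 11 and 5, Nr4a3 3 and 0 and Egr2 0 in both, all under the minimum. The limit that 0 counts allow, again taken as 3 counts, was 1.91 CPM in the control and 2.36 CPM in the B16-F10 library.

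In LEC-like ECs 1 of 2 measured genes was higher and none lower, against 6.55% higher and 6.23% lower among all. Egr1 stood at 23.5 CPM (10 UMIs) and 222 CPM (106 UMIs), a log2 ratio of 3.24 (2.30 to 4.34). In the control 1 cell held 9 of these UMIs, and in the B16-F10 library 1 cell held 28. The counting interval does not cover such uneven spread between cells. At 2000 UMIs per cell Egr1 was found in 2% (0.0506 to 10.6) and 14.6% (6.07 to 27.8) of cells, with intervals that overlap. Ier2 gave 39 and 36 UMIs, a log2 ratio of -0.28 (-0.98 to 0.41), and 1.59 when cells were assigned by marker score, a class of 323 and 629 cells. Ier3 gave 15 and 34 UMIs, under the minimum. Nr4a1 gave 4 UMIs and Nr4a2 2 UMIs in each library, Egr2 0 and 2, Nr4a3 0 and 1 and Egr3 none, with a limit at 3 counts of 7.05 and 6.28 CPM. The class rests on 50 and 48 cells.

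**Figure D3:**
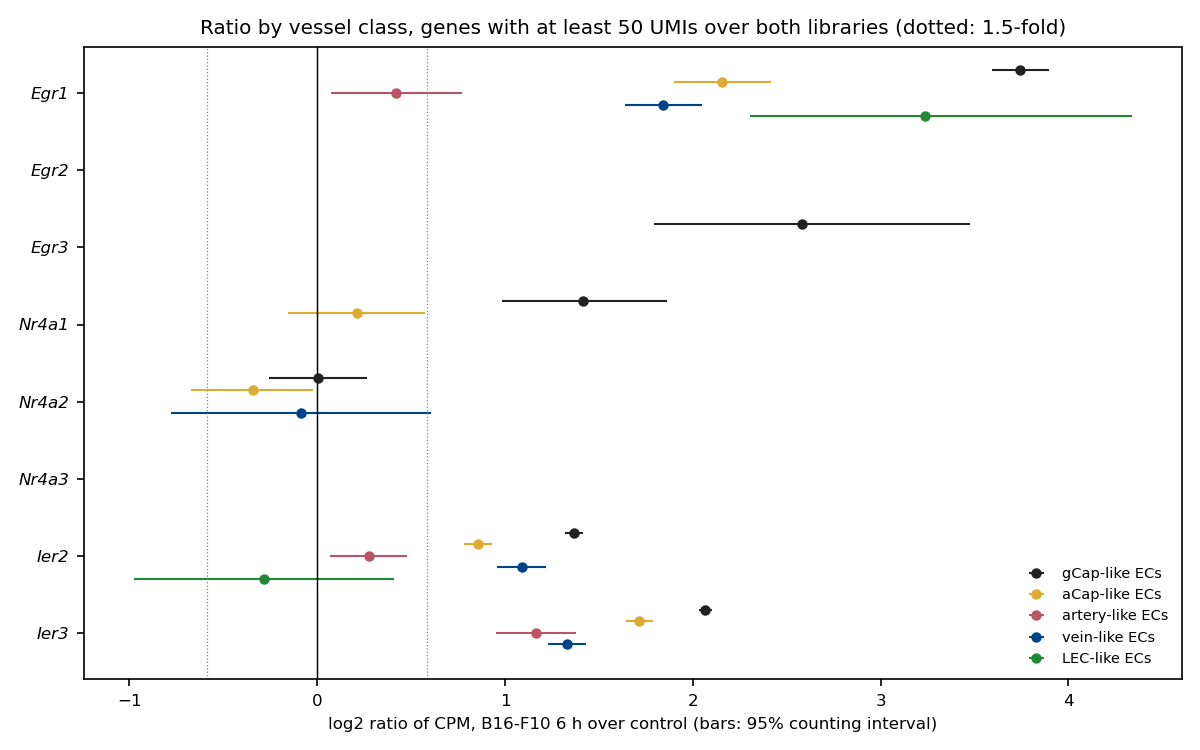
Log2 ratio of CPM, B16-F10 6 h over control (x axis), for each gene with at least 50 UMIs (rows) in each vessel class (colours), with 95% counting intervals; dotted lines mark 1.5-fold. Egr1 ranges from 0.42 in artery-like to 3.74 in gCap-like ECs, while Nr4a2 stays between -0.34 and 0.00 in the 3 classes where it was measured.

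The order of the classes by level differed between the libraries for Egr1. In the control it ran from gCap-like (10.8 CPM) and aCap-like (12.0), whose intervals overlap, through LEC-like (23.5, 11.3 to 43.2) to vein-like and artery-like ECs (both 85.7). In the B16-F10 library it ran from aCap-like (53.6) through artery-like (115), gCap-like (144) and LEC-like (222) to vein-like (307), and no intervals of neighbours overlap. For Ier3 LEC-like ECs had the lowest level in both libraries (35.3 and 71.2 CPM) and vein-like ECs the highest (390 and 979). Nr4a1 stood lowest in gCap-like ECs in both, at 1.69 and 4.50 CPM, against 10.0 and 11.6 CPM in aCap-like ECs. In the B16-F10 library the gCap-like interval (3.86 to 5.22) overlaps those of vein-like (6.52, 3.92 to 10.2) and LEC-like ECs (8.37, 2.28 to 21.4).

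Over all ECs 6 of 7 measured genes were higher and none lower, against 8.18% higher and 10% lower among all genes. Egr2, with 7 and 59 UMIs over all ECs, was measured here, with a log2 ratio of 2.98 (1.85 to 4.36), and Nr4a3 with 9 and 26 UMIs was not. Of the Egr2 UMIs, 0 and 29 came from the ECs without a vessel class, 66 control and 352 B16-F10 cells. The part of this uneven number of cells in the ratio was not tested. Nr4a2 was neither (9.15 and 7.74 CPM, -0.24, -0.43 to -0.05). The log2 ratio of Nr4a1 was 0.62 (0.39 to 0.86) over all ECs, against 1.41 in gCap-like ECs.

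Shares of cells were taken after every gCap-like cell had been thinned to 2000 UMIs, which left 4798 control and 4511 B16-F10 cells and dropped 63 and 31. Ier3 was found in 28.2% (26.9 to 29.5) of control cells and 67.1% (65.7 to 68.5) of B16-F10 cells, and Ier2 in 21.0% (19.8 to 22.2) and 42.2% (40.7 to 43.6). Egr1 was found in 1.48% (1.16 to 1.86) and 15.6% (14.6 to 16.7). Free RNA would give a share of 0.0766% and 0.312% for Egr1 and of 0.554% and 2.40% for Ier3. Without thinning the shares were 3.85% and 30.8% for Egr1, 50.4% and 77.0% for Ier2, and 56.6% and 90.3% for Ier3.

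The less abundant genes were found in few cells. Nr4a2 was found in 1.27% (0.974 to 1.63) of control and 1.24% (0.939 to 1.61) of B16-F10 gCap-like cells at 2000 UMIs, and Nr4a1 in 0.354% (0.207 to 0.567) and 0.887% (0.634 to 1.21). Egr3 was found in 0.0625% (0.0129 to 0.183) and 0.421% (0.254 to 0.657). Egr2 was found in 1 and 7 cells, and Nr4a3 in 0 of 4798 control cells, which allows a share of up to 0.0625% at 3 counts (0.0769% by the Clopper-Pearson interval), and in 5 B16-F10 cells. The UMIs of Egr1 were also spread unevenly: in the control the 1% of gCap-like cells with the most Egr1 UMIs held 59.9% of them, with 41 in 1 cell, and in the B16-F10 library 18.3%, with 38 in 1 cell.

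At 2000 UMIs per cell, 57.1% (55.7 to 58.5) of control gCap-like cells and 20.9% (19.8 to 22.2) of B16-F10 cells had none of the 8 genes. At least 4 of the 8 were found in 2 control cells (0.0417%, 0.00505 to 0.150) and 27 B16-F10 cells (0.599%, 0.395 to 0.870), and no cell had more than 5. The median cell had 0 summed UMIs of the 8 genes in the control and 2 in the B16-F10 library, and the highest cells had 16 and 25.

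**Figure D4:**
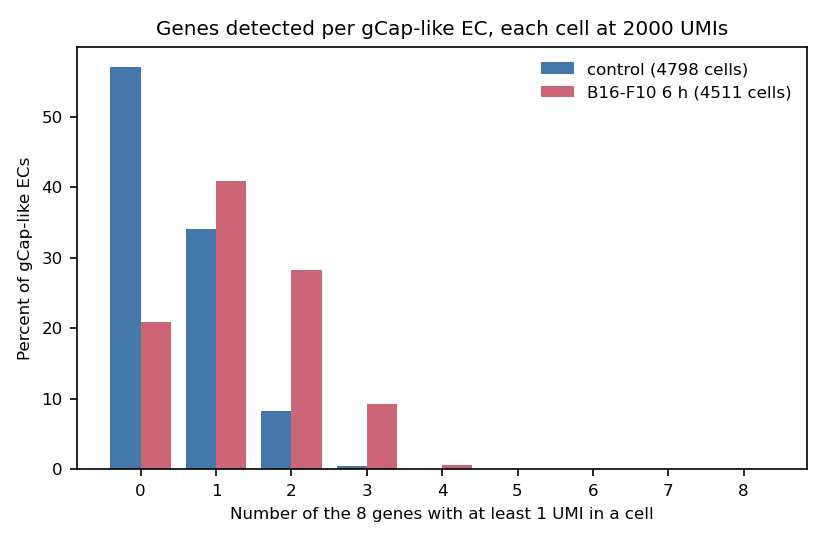
Percent of gCap-like ECs (y axis) by the number of the 8 genes with at least 1 UMI (x axis), each cell thinned to 2000 UMIs. Most control cells had 0 (57.1%), and B16-F10 cells most often had 1 (40.9%) or 2 (28.3%).

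Across single gCap-like cells thinned to 2000 UMIs, Ier2 and Ier3 were the genes of the set found in at least 5% of cells in both libraries, so that likeness to other genes was described for these alone. The correlation of log UMIs is given over 4798 control and 4511 B16-F10 cells and ranked by the lower of the libraries among 5696 genes. The genes most like Ier2 were Junb (r = 0.18 in the control and 0.33 in the B16-F10 library), Fos (0.14 and 0.23) and Jund (0.14 and 0.22), all AP-1 subunits. Those most like Ier3 were Junb (0.24 and 0.36), Socs3, an inhibitor of cytokine signalling (0.18 and 0.34), and Cebpd, a stress-induced transcription factor (0.18 and 0.35). Ier2 and Ier3 themselves gave 0.12 and 0.24. All cells of a library share its preparation, and counts are sparse at this depth.

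The gCap-like class held 6 clusters that the libraries filled unevenly, and the ratios were therefore also taken within each. Cluster 3, led by Tmem252, Adamts9 and Disp2, held 92 control and 1138 B16-F10 cells, and cluster 1, led by Hey1, Hilpda and Ankrd63, held 1656 and 451. The paper counts Tmem252 and Adamts9 among the markers of its reactive capillary cluster, which it sets apart from gCap cells. Here cluster 3 is pooled into the gCap-like class, and whether it is the reactive cluster of the paper was not tested. None of the 8 genes took part in the clustering. Egr1 was higher beyond counting error in 6 of 6 clusters, with a log2 ratio from 2.58 to 4.28, Ier2 in 6 of 6 (0.98 to 1.45) and Ier3 in 6 of 6 (0.87 to 2.18). Nr4a1 was higher beyond counting error in 4 of 6 (-0.37 to 4.07), while Nr4a2 stayed within counting error in 6 of 6 (-0.37 to 0.57). The minimum for a call was not applied to these clusters. Nr4a1 gave 15 and 11 UMIs in cluster 1, 12 and 15 in cluster 5, and 1 and 8 in cluster 6, all under that minimum. The value of 4.07 is that of cluster 6.

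Cluster 3 had the highest level of Egr1, Ier2 and Ier3 among gCap-like clusters in both libraries. Egr1 stood there at 43.1 CPM (30 UMIs) in the control and 306 CPM (3255 UMIs) in the B16-F10 library, and Ier3 at 743 and 1361 CPM. Without cluster 3, the log2 ratio of Egr1 in gCap-like ECs was 3.04 in place of 3.74, and 4 of 5 measured genes were higher. The share of all genes that were higher without cluster 3 is not given, so this count lacks that comparison. For Egr3, cluster 3 held 70 of the 99 UMIs of B16-F10 gCap-like ECs. Within cluster 3 Egr3 gave 8 UMIs (11.5 CPM) in the control and 70 (6.59 CPM) in the B16-F10 library, a log2 ratio of -0.80 (-1.86 to 0.46). When each cluster had the same weight, the log2 ratio of Egr3 was -0.02 in place of 2.58, and without cluster 3 it was 2.34, on UMIs below the minimum for a call.

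ECs without a vessel class held Egr3 at a higher level than any vessel class. These cells gave 11 UMIs in the control (20.03 CPM, 10.0 to 35.8) and 162 in the B16-F10 library (51.5 CPM, 43.8 to 60.0), of 45 and 306 over all ECs. The next level was that of artery-like ECs, at 6.99 CPM (3.49 to 12.5) in the control, whose interval overlaps, and 3.93 CPM (1.28 to 9.17) in the B16-F10 library. Of the 11 control UMIs, 7 came from cluster 21, of 52 control and 9 B16-F10 cells, which gave none in the B16-F10 library. The pooled levels of the 2 libraries thus come mostly from different clusters. Most of the 162 came from cluster 14, with 152 UMIs in 231 cells (59.7 CPM), and its 8 control cells gave 4 UMIs (59.5 CPM). Bean1, Fosl1 and Adamts4 led this cluster. It also held Egr1 at 361 CPM and Ier2 at 575 CPM in the B16-F10 library, whereas its level of Ier3, 393 CPM, was below that of gCap-like ECs. Within cluster 14 the log2 ratio of Egr1 was 0.35 (-0.30 to 1.09) and that of Ier2 1.18 (0.50 to 1.97), on 8 control cells.

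**Figure D5:**
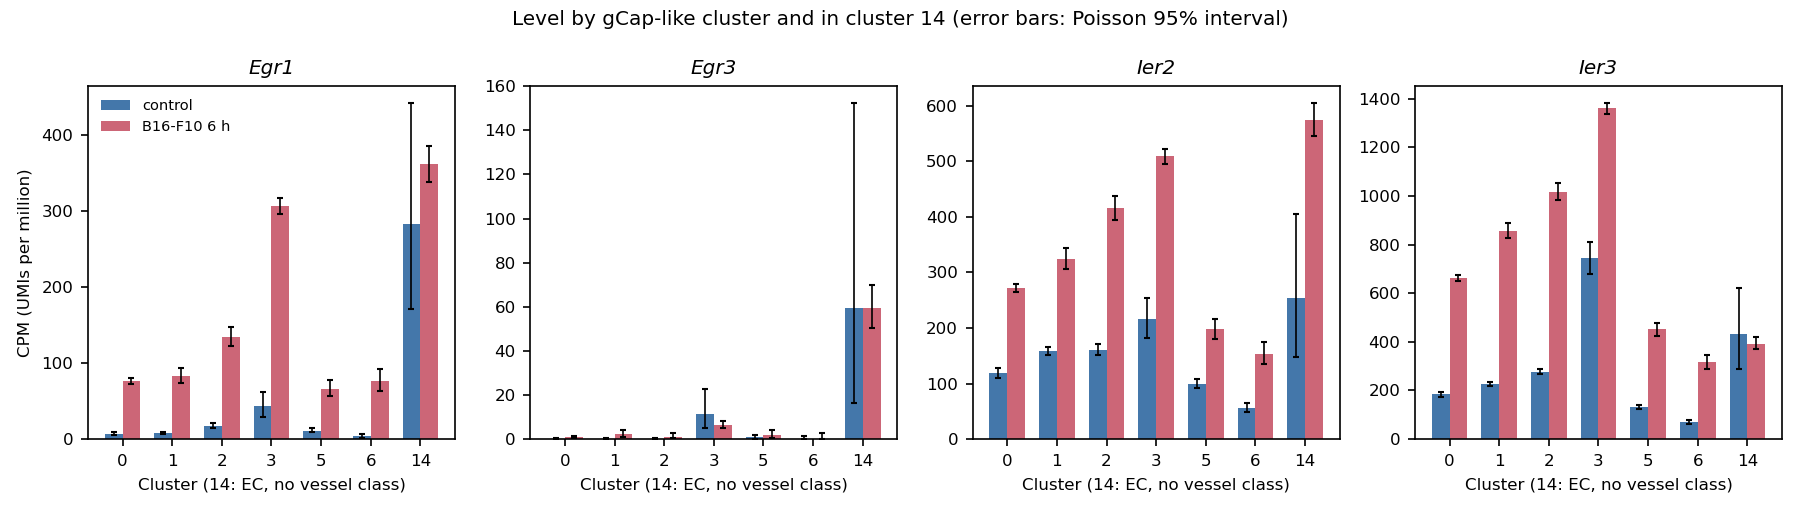
CPM (y axis) of Egr1, Egr3, Ier2 and Ier3 in the gCap-like clusters 0, 1, 2, 3, 5 and 6 and in cluster 14, an EC cluster without a vessel class (x axis), for both libraries; error bars are Poisson 95% intervals. Among gCap-like clusters cluster 3 is highest for each gene, and Egr3 is highest in cluster 14 (59.5 and 59.7 CPM).

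Melanoma-like and macrophage or monocyte-like cells are described in the B16-F10 library alone, since the control held 1 and 5 of them. In 81 melanoma-like cells Nr4a3 stood at 28.0 CPM (24 UMIs in 12 cells), against 0.358 CPM in gCap-like ECs, while Egr1 gave 5 UMIs in 2 cells (5.83 CPM) and Egr2 and Egr3 none. In 31 macrophage or monocyte-like cells Nr4a1 stood at 230 CPM (116 UMIs in 22 cells) and Nr4a2 at 71.3 CPM (36 UMIs in 12 cells), above their levels of 4.50 and 6.58 CPM in gCap-like ECs. Egr1 stood at 232 CPM in these cells. The sort removed most leukocytes, so these cells are those that passed it. In 23 control and 28 B16-F10 epithelial-like cells Ier3 stood at 56.2 CPM (33.9 to 87.8) and 183 CPM (140 to 236), and Ier2 at 79.9 and 96.2 CPM, with intervals that overlap. Mixed clusters, of 859 and 1222 cells, held Egr1 at 30.7 and 119 CPM and Ier3 at 167 and 574 CPM.

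The genes around the 8 were described by lists. Of 37 measured genes of the other primary response list in gCap-like ECs, 24 were higher, none lower and 13 neither, against 7.64% higher and 8.88% lower among all measured genes, with a median log2 ratio of 0.96. Myc, a growth regulator, had the highest log2 ratio of 5.13 (17 and 656 UMIs), followed by the AP-1 subunit Fosl1 (3.37) and the stress factor Atf3 (2.79). Zfp36l2 (-0.56), whose product destabilises mRNA, the kinase Sgk1 (-0.46) and Klf10 (-0.19) had the lowest ratios and were neither. In the other classes 17 of 35 genes were higher in aCap-like (6.07% of all genes), 14 of 32 in vein-like (4.43%), 8 of 31 in artery-like (6.9%) and 4 of 21 in LEC-like ECs (6.55%). In aCap-like ECs 1 was lower (7.4% of all genes) and in LEC-like ECs 1 (6.23%).

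Of 7 measured EGR corepressors and known targets, 3 were higher and none lower in gCap-like ECs (7.64% and 8.88% of all measured genes), with a median log2 ratio of 0.44. Gdf15 (1.42), the adhesion molecule Icam1 (0.71) and the growth factor Pdgfa (0.63) were higher. The corepressors Nab1 (0.26) and Nab2 (0.09), which bind EGR proteins, and Tgfb1 (0.05) were neither. Of 7 measured NR4A partners and cofactors, against the same shares, none was higher and 1, the coactivator Ncoa3 (-0.64), was lower, with a median of -0.15. Ncoa2 (-0.47) and Ncoa1 (-0.37), and the receptors Rxra (-0.03) and Rxrb (-0.10) that pair with some NR4A proteins, were neither.

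Genes that act before the immediate early genes were called no more often than all measured genes, of which 7.64% were higher and 8.88% lower. Of 18 kinases of the MAPK and cAMP pathways, none was higher and 1 was lower, Rps6ka5 (-0.78), a kinase of CREB and histone H3, with a median log2 ratio of -0.15. Map2k2 (0.29), Mapk3 (0.22), Mapkapk2 (0.19), Rps6ka1 (-0.51) and Camk4 (-0.55) were neither. Of 17 transcription factors and cofactors that bind immediate early promoters, 1 was higher, Srf (0.65, 225 and 388 UMIs), the factor that binds the serum response element, and none was lower, with a median of -0.03. Rela (0.49), Mef2a (0.20), Crebbp (-0.34), Ep300 (-0.37) and Mef2c (-0.54) were neither. These are mRNA levels and say nothing of the activity of the proteins.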

How the data were processed

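The 2 libraries of mouse lung cells were analysed, 1 per group. The authors deposited raw counts of UMIs per gene and barcode for all barcodes, with no normalization or filter, made per the submitters' processing notes with Cell Ranger 7.2.0 on mm10 (Seurat 4.4.0 is also named). The paper names another version, and whether intron reads were counted is not given in the sources used here, which would affect long genes.

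The limits on cells were those of the study, from 1000 to 5000 genes with less than 20% of UMIs mitochondrial. Simulated doublets were used to score cells, and 564 and 554 were removed. Of 3000 variable genes, 2892 remained after 2 sets of genes were left out. These were the genes of the lists used here and the study's markers of its reactive capillary and high interferon clusters. Cells were clustered with leidenalg 0.10.2 (30 components, 20 neighbours, resolution 0.8) into 28 clusters of at least 10 cells, and 2 cells stood alone. A vessel class needed at least 50% of its markers, and no fewer than 3. Each had to be at least 1.5-fold over the mean of the other clusters and in at least 10% of cells. No other list could hold more of the genes that led the cluster. Cluster 3 was named gCap-like on 4 of 8 gCap markers, at this limit. Clusters with markers of another type beside EC markers were called mixed and kept out (859 and 1222 cells).

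Ratios carry exact conditional binomial intervals, levels Poisson intervals and shares Clopper-Pearson intervals, all computed with scipy 1.17.1. The limit at a count of 0 was set at 3 counts. The ratio step was tested on simulated Poisson counts with known ratios, which lack the uneven spread between cells seen for Egr1. The thinning step was checked on cells of the control library, and only for the number of UMIs left per cell. The 8 genes and the gene lists were chosen with earlier results of these data known. Named genes are the 8, the 3 highest and 3 lowest of each list in gCap-like ECs, and the 3 most like genes, except 1 listed gene that is not reported here. Clusters 3 and 14 were singled out after their values were seen. Alternatives are given in the closing section.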

Additional observations from a re-analysis of the deposited data

Results flagged for a closer look

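The 8 genes were also counted in barcodes that no comparison used. In barcodes with 1 to 100 UMIs, mostly free RNA, they summed to 422 CPM in the control and 1284 CPM in the B16-F10 library. Where barcodes had more than 100 UMIs but fewer than 300 genes, the sums were 268 and 872 CPM, and from 300 to just under 1000 genes they were 198 and 517 CPM. Barcodes above 5000 genes gave 408 and 1069 CPM. In each of these ranges the B16-F10 library was higher than the control beyond counting error, which is a signal outside the cells analysed.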

How the results depend on the processing

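No paired analysis was possible because a single library stands for each condition, and for that reason none could be left out. In gCap-like ECs 118 alternative values of the 8 log2 ratios were computed, of which 96 lay within the counting interval of the reported value, 21 lay outside it with the same sign or with an interval that held no change, and 1 changed sign. In the other classes 140 of 154 values lay within it; genes under 50 UMIs there were not recomputed. Of the values outside, the log2 ratio of Ier3 in gCap-like ECs was 2.11 with no upper limit of genes, 2.02 with under 10% mitochondrial UMIs, 2.13 with doublets kept, 2.19 at resolution 1.6, 2.12 with the response genes kept in the clustering, 2.11 when centred on the median of all genes, 1.91 over all ECs and 2.01 without clusters of few UMIs. Ier2 was 1.44 with doublets kept, 1.42 at resolution 1.6 and 1.21 over all ECs. Over all ECs Egr1 was 3.02 and Nr4a1 0.62. Egr3 was 1.71 with under 10% mitochondrial UMIs, and Nr4a2 was -0.28 with the response genes kept. Alternatives chosen after seeing the data gave, with each cluster weighted equally, Egr1 3.03, Ier2 1.21, Ier3 1.52 and Egr3 -0.02, and, without the cluster of 92 control and 1138 B16-F10 cells, Egr1 3.04, Ier2 1.10 and Ier3 1.81. The sign of Egr3 turned because 8 of its 15 control UMIs lay in those 92 cells. The cause of the other shifts was not tested. With cells thinned to 2000 UMIs, aCap-like Nr4a1 was 0.85 and Ier2 1.02, artery-like Ier3 0.94, and vein-like Ier2 0.92 and Ier3 1.5. Artery-like Egr1, Ier2 and Ier3 were 1.03, 0.60 and 1.67 with at least 500 genes, and Egr1 0.98 with at least 1500. With marker scores of single cells, artery-like Egr1, Ier2 and Ier3 were 2.27, 1.04 and 1.87, vein-like Ier3 1.44 and LEC-like Ier2 1.59.

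The count of 5 higher genes in gCap-like ECs was 4 to 6 under the other filters, clusterings and classes run, 4 where Egr3 fell below 50 UMIs and 6 over all ECs, where Egr2 was measured. It was 7 of 8 with a minimum of 10 UMIs, which let Egr2 and Nr4a3 count, and 5 with a 2-fold limit. The difference in the share of gCap-like cells, in percentage points, was with 4000 UMIs and with no thinning 20.02 and 27.00 for Egr1, 0.72 and 1.22 for Egr3, 24.10 and 26.61 for Ier2, and 36.37 and 33.74 for Ier3, and with no thinning 2.20 for Nr4a1 and 0.65 for Nr4a2. With a 2-fold limit, 1 EGR partner or target, 0 upstream factors and 0 heat shock genes were higher, and 0 NR4A partners, 0 kinases and 1 heat shock gene were lower. The shares of all genes at 10 UMIs, at 2-fold and under other filters or clusterings are not given. The counts at these settings therefore lack that comparison. The LEC-like values rest on 50 control cells, and those of Egr2 and Nr4a3 on few UMIs.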
